A study of Homo sapiens with 12 samples.

Results

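The arrays described here are the 3 of 12 in the series that carried RNA of untreated PC9 cells, chosen by their titles alone. PC9 is an established human cell line grown from a lung adenocarcinoma whose EGFR gene carries an activating mutation, and the labels call it a non-small cell lung cancer line. The untreated cells grew alone and received DMSO, the solvent of the drug. The other 9 arrays, 3 per group, carried PC9 cells with 0.5 µM of the EGFR inhibitor gefitinib, PC9 cells kept for 48 h in co-culture with MRC-5 lung fibroblasts behind inserts with 1 µm pores, and PC9 cells under that co-culture with 0.5 µM gefitinib. All groups share 1 cell line, and the labels give medium with 10% FCS for all of them. The labels repeat 1 treatment text on every sample, so the medium of the cells grown alone in the last hours cannot be read from them. Nothing in the labels states that the 3 DMSO arrays came from separate cultures, so the spread between them may be technical. Total RNA was copied into biotin-labelled cRNA and read on single-colour Illumina bead arrays, whose signal is a brightness in intensity units.

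Lung adenocarcinomas arise from the epithelium of the distal airways and alveoli. Alveolar type 2 cells make surfactant and type 1 cells form the gas-exchange surface, while club and goblet cells line the airway and basal cells renew it. The transcription factor NKX2-1 marks most normal lung epithelium and many adenocarcinomas, and simple epithelial keratins and EPCAM mark epithelial tumours in general. EGFR is a receptor tyrosine kinase of the ERBB family. On binding a ligand such as TGFA or HBEGF it pairs with another family member and signals through the RAS-ERK and PI3K-AKT cascades.

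A gene was called on when at least 1 of its probes had a detection p-value under 0.05 on all 3 DMSO arrays, off when none of its probes did so on any of them, and mixed otherwise. Of 20046 named genes, 10530 (52.5%) were on, 6111 (30.5%) were off and 3405 were mixed. Signals of on genes averaged 102 to 19898 units with a median of 329 units, and off genes had a median of 91.3 units and a maximum of 110.3 units. Off signals are therefore the background brightness of the array and not a level. An off call alone does not show that a transcript is absent. PDIA3, the 1 off gene among 27 structural and chaperone genes, averaged 93.8 units on its only probe. NDUFB1, the 1 off gene among 35 subunits of mitochondrial complex 1, averaged 89.8 units on its only probe. Whether such probes bind their transcripts was not tested. Counts of on members below are to be read against the 52.5% over all genes, and no test was made on any of them. Since probes differ in how well they bind, signals of different genes were not ordered as amounts of transcript.

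Olfactory receptors, which belong to the sensory neurons of the nose, gave a reference brightness for weak on calls, chosen after the data were seen. Of 384 such genes, some of them pseudogenes by name, 11 (2.86%) were on and 293 were off. At a detection p-value under 0.01, 7 were on, and 7 of the 11 were on in all 4 groups. Whether these calls are chance detection or signal that the probes read was not tested. OR2A42 was the brightest, with 137, 138 and 165 units on arrays 1, 2 and 3 and a mean of 147 units. It was on by 1 of its 2 probes, and the other was off on all 3 arrays. Above that mean lay 8427 on genes, which is 42.0% of all named genes, and 2103 on genes lay at or below it. Named on genes with means under this line are described below as under or below it.

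**Figure D1:**
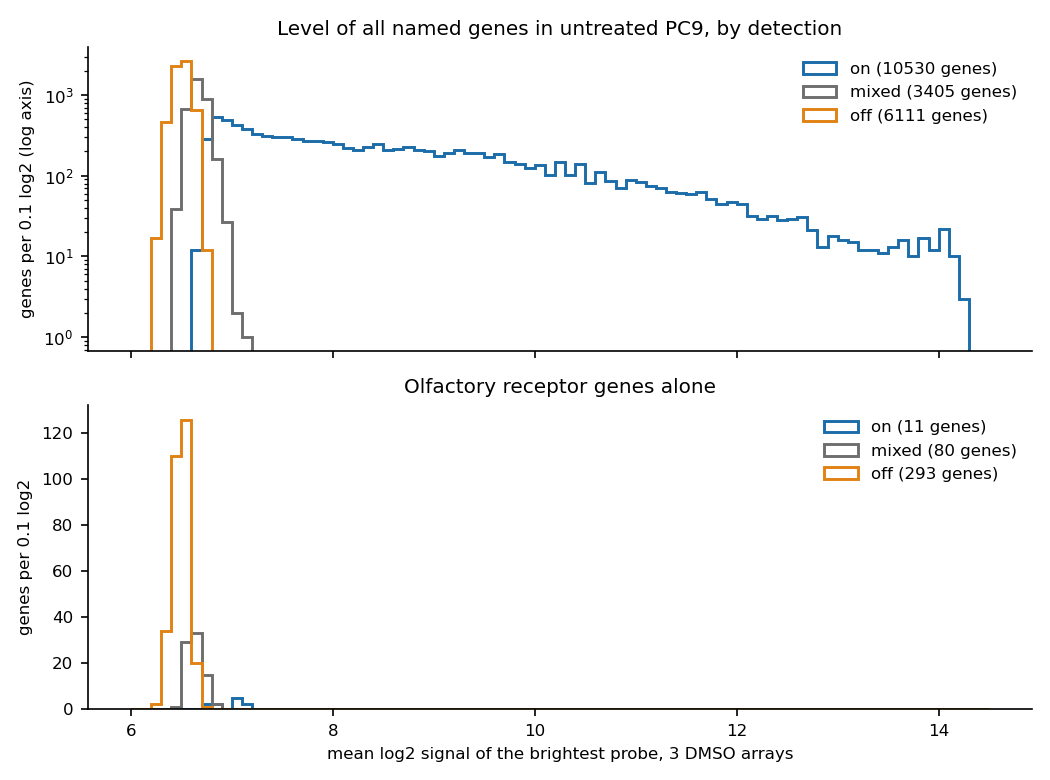
Number of genes per 0.1 log2 step (vertical axis, logarithmic in the upper panel) by mean log2 signal of the brightest probe over the 3 DMSO arrays (horizontal axis), for all named genes (top) and the 384 olfactory receptor genes (bottom), split into on, mixed and off. Off genes form a narrow peak around the median of 6.51, on genes run from 6.67 to 14.28, and the 11 olfactory receptor genes called on reach at most 7.19.

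The brightest probes of untreated PC9 belonged to the translation machinery, the cytoskeleton, iron storage, thiol redox proteins and glycolysis. FTL, the ferritin light chain that stores iron, had 21041, 18522 and 20131 units on arrays 1, 2 and 3, a mean log2 of 14.28 ± 0.09 (SD, n = 3, as for every mean log2 below). EEF1A1, which brings aminoacyl-tRNA to the ribosome, had 20962, 18182 and 19869.9 units. Array 2 was the dimmest of the 3 for both, as it was over all on genes, where its median difference from array 1 was 0.15 on the log2 scale. TPT1, a growth-associated calcium-binding protein, had 20161, 17406 and 18735 units and TXN, the electron donor thioredoxin, 19803, 16731 and 18896 units.

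Of the 50 brightest genes, which lay between 15086 and 19898 units, 17 encoded cytosolic ribosomal proteins, and 69 of 72 genes of that family were on. RPS12 of the small subunit had 20689, 18954 and 18434 units and RPL41 of the large subunit 18024, 18894 and 18078 units. The 2 off members, RPL10L (96.8, 93.1 and 105 units) and RPL3L (87.0, 91.1 and 87.8 units), are paralogs known from testis and striated muscle. Another 6 of the 50 were pseudogenes. RPL13AP5 and RPSAP9 among them are near-identical in sequence to active ribosomal protein genes, so their probes cannot be told apart from the parent transcripts by these data. All 15 measured aminoacyl-tRNA synthetases, 33 of 35 proteasome subunits and 31 of 35 subunits of mitochondrial complex 1 were on. PSMB6, a catalytic subunit of the standard proteasome, had 10965, 9488 and 9344 units, against the testis subunit PSMA8, which was off at 82.0, 89.3 and 100.5 units.

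Glycolysis was on in 21 of 24 genes. LDHA, which turns pyruvate into lactate, had 18040.1, 17022 and 17064 units and ENO1, the enolase, 17938, 15313 and 18333 units. GAPDH had 19628, 14541 and 15964 units and TPI1 12612, 10522 and 11932 units, and PGAM2, the muscle form of phosphoglycerate mutase, was off at 99.7, 88.7 and 78.9 units. The actins ACTG1 (21101, 17634 and 16089 units) and ACTB (21106, 15901 and 17757 units) were brightest on array 1. S100A10, a partner of annexin at the membrane, had 19302, 17366 and 17105 units, and 12 of 19 genes of its family were on, S100A6 at 8124, 7623 and 8400.0 units and S100P at 2762, 2256 and 2451 units among them.

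Untreated PC9 carried a nearly complete simple epithelial programme: 27 of 29 genes were on, 0 were off, and 24 lay above the olfactory line. KRT19, a keratin of simple and ductal epithelium, had 10689, 7824 and 10081 units, mean log2 13.21 ± 0.24. EPCAM, the epithelial cell adhesion molecule, had 8296, 8128 and 7761 units, mean log2 12.98 ± 0.05, on the brightest of 3 probes, all on. SPINT2, an inhibitor of membrane serine proteases, had 10466, 8046 and 8609.7 units. All 3 genes were far above the off signals on every array. The filament partners KRT8 (5121, 5511 and 6562 units) and KRT7 (4341, 4568 and 4761 units) followed, with MAL2 of apical transport at 3459.8, 2572 and 3529.8 units.

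Over the whole keratin family 11 of 49 genes were on and 30 off, so most keratins were not detected. KRT13, which in tissue belongs to the suprabasal layers of stratified mucosa, had 9741, 9549 and 9263 units and a mean log2 of 13.22 ± 0.04. KRT80 had 3512, 2840.2 and 3242 units and KRT10 1400.0, 1389 and 1483 units. Off members included KRT1, KRT2 and KRT20, an intestinal keratin, at 82.7, 96.2 and 95.1 units.

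Of 14 alveolar type 2 genes only LPCAT1, a surfactant lipid enzyme, at 530.0, 625 and 764 units and the lamellar body protein LAMP3 at 252, 213 and 214 units were on. The surfactant genes SFTPC (88.6, 88.5 and 86.8 units), SFTPA1 (95.2, 91.3 and 103 units) and SFTPD (88.7, 91.6 and 89.1 units) were off, and SFTPB was mixed with detection on 1 of 3 arrays. SFTPC was also undetected on all of the other 9 arrays, and SFTPA1 was off with gefitinib and with co-culture plus gefitinib but mixed in co-culture. Among 15 alveolar type 1 genes 6 were on, led by CAV1 (13118, 11959 and 13708 units, mean log2 13.66 ± 0.10) and CAV2 (3312, 3151 and 2895 units), which build caveolae in many cell types. The water channel AQP5 was off at 82.2, 80.6 and 85.8 units, and AGER, PDPN and HOPX were mixed.

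Airway secretory genes were on in 5 of 17 cases. LCN2, an iron-scavenging defence protein, had 6379, 5718 and 6189 units, mean log2 12.57 ± 0.08, WFDC2 675, 713 and 795 units and the protease inhibitor SLPI 346, 298 and 342 units. The club cell secretoglobins SCGB1A1 (96.8, 94.0 and 97.0 units) and SCGB3A1 (93.3, 89.1 and 90.4 units) were off, as were the mucin MUC5B and TFF3. Basal and squamous genes were on in 6 of 12. SERPINB5 had 947, 876 and 1018 units, TRIM29 968, 696 and 911 units and KRT5, a basal keratin, 210.1, 225 and 259 units, while its filament partner KRT14 (104, 91.2 and 115 units) and the desmosomal DSG3 were off. Ciliated cell genes gave 5 on of 12, of which 2 lay above the olfactory line.

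Of 14 neuroendocrine genes 2 were on, 4 mixed and 8 off, and UCHL1, a ubiquitin hydrolase of neurons and many cell lines, had 11951, 9848 and 10052 units, mean log2 13.37 ± 0.15. The granule genes CHGA (87.0, 84.4 and 86.6 units), CHGB and SYP (82.9, 82.7 and 82.2 units) were off. Muscle genes were on in 0 of 12, hepatocyte genes in 2 of 15, gastric and intestinal genes in 2 of 18, erythroid genes in 1 of 10 and endothelial genes in 2 of 12. Neuronal genes were on in 4 of 12, mixed in 5 and off in 3, with the neurofilament NEFH at 361, 329 and 388 units, and melanocyte and neural crest genes were on in 2 of 7, with the melanosome protein PMEL at 169, 170.3 and 172 units. ALB, the serum albumin gene, was on at 161, 116 and 152 units on 1 of its 2 probes, with a mean below the olfactory line, and CDX1 and CDX2, the intestinal factors, were off.

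Leukocyte genes were on in 5 of 17, mixed in 7 and off in 5, and fibroblast genes were on in 5 of 18, mixed in 5 and off in 8. PTPRC, the pan-leukocyte phosphatase CD45, had 92.2, 88.9 and 92.0 units and CD3D of the T cell receptor 83.5, 90.9 and 99.5 units, both off. LCP1, an actin bundler of leukocytes that many carcinoma lines also carry, had 2630.0, 2292 and 2644 units, and the lysosomal CD68 1644, 1242 and 1339 units. The other 3 on members, CORO1A, CSF1R and ITGAM, lay below the olfactory line. Among fibroblast genes LUM (92.3, 98.0 and 98.9 units), FAP (87.1, 88.6 and 84.7 units), COL3A1 (93.2, 86.5 and 85.4 units), PDGFRB and THY1 were off. S100A4 was on at 6049, 4460.3 and 6244 units and the matrix genes FBLN1 at 1158, 956 and 1062 units and SPARC at 219, 206 and 193 units.

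Among 34 lung and endoderm transcription factors 14 were on, 9 mixed and 11 off. CEBPB, a bZIP factor of stress and epithelial differentiation, had 4108, 3591 and 4269.7 units, mean log2 11.96 ± 0.13. FOXA1, a pioneer factor of endoderm, had 800.2, 619.6 and 704 units, mean log2 9.46 ± 0.18, and ELF3, an epithelial ETS factor, 722, 538 and 713 units. IRX3 had 1399, 1258 and 1513 units, the BMP target ID1 1147, 1157 and 1467 units and ETV5, an ETS factor downstream of ERK, 919, 839.5 and 879.8 units. ETV5 ran from 121 to 1219 units over the other 9 arrays.

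NKX2-1 was off, with 79.4, 86.6 and 137 units. The value on array 3 was the highest and yet undetected there, so detection on these arrays is not a function of brightness alone. Both NKX2-1 probes were undetected on all 12 arrays. GATA6 (103, 94.2 and 104 units), FOXP2 (97.4, 94.2 and 98.5 units), SOX17 (86.3, 87.5 and 80.1 units) and SOX11 were also off in the DMSO arrays, and FOXA2 and SOX2, named here after their values were seen, were mixed, with a probe detected on 2 arrays for FOXA2 and on 1 array for SOX2.

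The SOX, FOX and GATA families were on in 6 of 19, 17 of 42 and 2 of 6 genes. SOX15 had 3416, 3331 and 3505 units, SOX13 869, 790.5 and 813 units and SOX7 663, 646 and 759.5 units. FOXQ1, a forkhead factor of epithelial cells, had 4686, 3667 and 4102 units, mean log2 12.01 ± 0.18, and FOXM1, which drives mitotic genes, 1345, 1215 and 1318 units. GATA3 had 195, 186 and 194 units. Of 9 PAX genes PAX6 (199, 208 and 234 units), PAX8 and PAX9 were on, PAX9 below the olfactory line.

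Mesenchymal transition genes split 9 on to 6 off among 18. TGFBI, a secreted TGF-beta-induced protein, had 6339, 6519.7 and 7959 units, mean log2 12.75 ± 0.18, and the hyaluronan receptor CD44 5105, 3656 and 3985 units. VIM, the mesenchymal filament vimentin, had 502, 424 and 501 units and CDH2, N-cadherin, 249.7, 232 and 267 units. Of the transcription factors in the list ZEB1 (78.0, 87.0 and 90.5 units), ZEB2 (91.4, 94.8 and 87.0 units) and SNAI1 (84.6, 87.0 and 85.3 units) were off, as were fibronectin, FN1, at 91.9, 90.2 and 89.1 units and MMP2. The factors SNAI2 (227, 192 and 225 units), TWIST2 (137, 131 and 128 units) and TWIST1 (119, 116 and 130.4 units), named here after their values were seen, were on, the TWIST genes with means below the olfactory line. In the same cells CDH1, E-cadherin, had 1134, 922 and 1172 units, mean log2 10.06 ± 0.19.

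**Figure D2:**
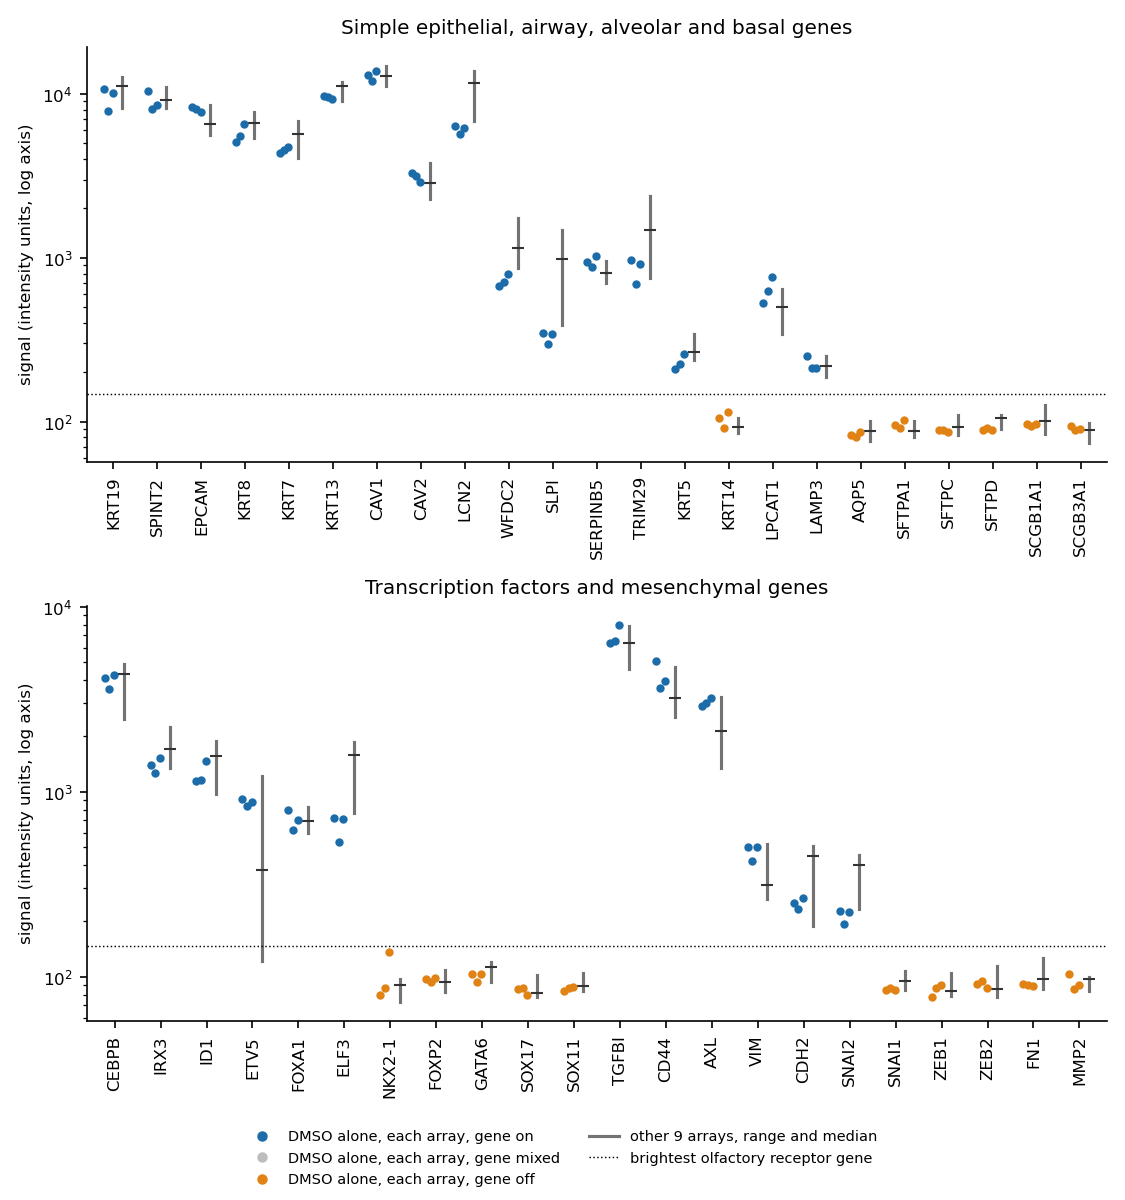
Signal of the brightest probe (vertical axis, intensity units, logarithmic) for markers of epithelium and lung cell types (top) and for transcription factors and mesenchymal genes (bottom). The 3 DMSO arrays are dots coloured by call, the grey bar and tick give the range and median of the other 9 arrays, and the dotted line is the mean of OR2A42. KRT19, KRT13, EPCAM and CAV1 sit near 10000 units while surfactant, secretoglobin, NKX2-1, ZEB1 and FN1 dots lie below the line.

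Classical cadherins and desmosomal genes were on in 13 of 24, claudins in 11 of 21 and integrins in 13 of 26. JUP, plakoglobin, had 2220.0, 2217 and 2547 units and DSG2, the simple epithelial desmoglein, 2329.8, 2022 and 2212 units, while the epidermal DSG1 was off at 88.3, 87.6 and 90.3 units. CLDN7 had 2129, 2255 and 2402 units and CLDN1 771, 696 and 744 units, and the endothelial CLDN5 was off. ITGB1, the common beta chain, had 5739, 4544 and 5381 units, ITGB5 5030.5, 4510.2 and 4785 units and the laminin receptor chains ITGA3 1742, 1664 and 1964 and ITGB4 1438, 1243 and 1557 units. ITGAE, a chain of intraepithelial lymphocytes, had 1977, 1343 and 1636 units, and the leukocyte chain ITGB2, named after its values were seen, 215, 212 and 228 units. The leukocyte chain ITGAL and the platelet and endothelial chain ITGB3 were off.

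Laminins, which build basement membranes, were on in 6 of 10, with LAMA5 at 5620.3, 5596 and 5468 units, mean log2 12.44 ± 0.02, and LAMC1 at 1665, 1361 and 1607 units. Of 43 collagens 14 were on, led by the anchoring fibril gene COL7A1 (1187, 1179 and 1306 units) and the basement membrane chain COL4A5 (907, 603 and 789 units). COL1A1 was weakly on, with 111, 101 and 146 units under the olfactory line. Matrix metalloproteinases were on in 2 of 24, MMP28 at 161, 161 and 155 units and MMP15, below the olfactory line, at 126, 129 and 149 units, with MMP1 (78.1, 91.3 and 104 units) off. SERPINE2, a secreted protease inhibitor, had 6149, 4909.9 and 5871 units among 9 on of 31 serpins.

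CEACAM6, a surface glycoprotein of epithelial cells, had 7504, 6201 and 7253 units, mean log2 12.77 ± 0.15, and CEACAM5, the carcinoembryonic antigen, 122, 132 and 134 units, below the olfactory line. Over the other 9 arrays CEACAM6 ran from 1502 to 10163 units. The membrane mucins MUC1 (701, 567 and 707 units), MUC16 (611, 577 and 671 units) and MUC4 (242, 235 and 294 units) were on, and the gel-forming MUC2 (99.1, 95.5 and 103 units) was off.

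Of 55 receptor tyrosine kinases 26 were on, 9 mixed and 20 off. EGFR had 1032, 1082 and 1113 units on its brightest probe, mean log2 10.07 ± 0.06, with the lowest SD of the 3 ERBB receptors that were on. The 3 other EGFR probes gave 237, 215 and 269 units, 109, 104 and 120 units, and 98.5, 79.0 and 100.6 units, the last of which was off on all 3 arrays. ERBB3, which has little kinase activity of its own, had 1068, 926 and 1125 units, mean log2 10.02 ± 0.15. ERBB2, the member without a known ligand, had 721, 564 and 689 units, mean log2 9.35 ± 0.19, and ERBB4 was off at 85.7, 91.7 and 89.2 units. ERBB3 was on with 2 of its 3 probes and ERBB2 with 1 of 3, and each had 1 probe that was off on all 3 arrays. By the rule that 1 probe suffices, the family was thus detected in 3 of 4 members.

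Outside the ERBB family AXL, the receptor of GAS6, had 2915, 3023 and 3203 units, mean log2 11.57 ± 0.07, with both probes on. MET, the hepatocyte growth factor receptor, had 1031, 846 and 937 units, mean log2 9.87 ± 0.14. The Wnt co-receptor RYK had 1829, 1345 and 1704 units and the collagen receptor DDR1 1093, 1054 and 1164 units. IGF1R (87.0, 86.2 and 107 units), KIT (97.5, 102 and 90.8 units), PDGFRB (87.4, 82.4 and 97.1 units), FLT3 and FLT1 were off. IGF1R was detected on 2 of 3 arrays with gefitinib and on 3 of 3 with co-culture and gefitinib.

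The ERBB ligands were on in 5 of 9, with 3 mixed and 1 off. HBEGF, a membrane-tethered ligand of EGFR and ERBB4, had 802, 816 and 856 units, mean log2 9.69 ± 0.05. TGFA, a ligand of EGFR, had 867, 663 and 810.2 units, mean log2 9.60 ± 0.20, with both probes on. Both lay above the olfactory line on every array. NRG4, a ligand of ERBB4, had 167, 145 and 157 units, EGF 158, 134 and 156 units and BTC 131, 109 and 128 units, so BTC fell below the line. EREG (107, 94.7 and 110.3 units) was detected on 2 of 3 arrays, NRG1 on 2 over its 7 probes, NRG3 on 1, and NRG2 (83.4, 91.2 and 86.5 units) on 0. AREG and EPGN were not analysed here.

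Other growth factors were on in 19 of 30. VEGFB had 3759.8, 3347 and 3397 units, the heparin-binding midkine MDK 2361, 2309 and 2383 units and the matricellular CCN2 1399.6, 1220.5 and 1394 units. GAS6, the AXL ligand, had 905, 733 and 919 units, so ligand and receptor were both on. IGF1 (89.6, 95.0 and 87.9 units), CSF1 (94.9, 99.6 and 93.5 units) and ANGPT2 were off. FGF ligands were on in 4 of 22, the brightest, FGF11, at 203, 187 and 177 units.

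Notch and Wnt receptors were on in 15 of 21, but only 8 above the olfactory line. LRP5 had 947, 858 and 1073 units, FZD2 874, 855 and 874 units and NOTCH3 576, 554 and 684 units, with LGR5 off. Wnt ligands were on in 5 of 19, WNT7B at 583, 558 and 587 units and WNT5A at 312, 285 and 405 units, and WNT1 and WNT3A off. Of the Notch and hedgehog ligands JAG1 (292, 280.4 and 292 units), JAG2 and DLL3 (381, 364 and 409 units, 1 of 2 probes) were on, and SHH was off at 85.4, 92.9 and 80.6 units.

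TGF-beta and BMP receptors were on in 7 of 13 and their ligands in 6 of 32. TGFBR2 had 672, 496 and 659 units while the type 1 receptor TGFBR1 was off at 98.8, 95.5 and 95.2 units and was undetected on the other 9 arrays as well. INHBB, an activin subunit, had 807, 659 and 723 units, BMP4 184, 170.4 and 169.6 units and TGFB2, below the olfactory line, 147, 119 and 132 units, and TGFB1 was off at 91.4, 79.6 and 82.0 units. Ephrins and semaphorins were on in 16 of 28, EFNB2 at 1366, 1084 and 1412 units.

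Cytokine receptors were on in 23 of 47. IL13RA1 had 1936, 1802 and 2339 units, the interferon gamma receptor chain IFNGR2 1123, 937 and 1096 units, IL10RB 974, 765 and 826 units and IL4R 832, 792 and 807 units. The lymphocyte chains IL2RA (104, 86.0 and 92.4 units), IL2RG and IL7R were off. Other receptor chains of blood cells were on. CSF2RA had 1450, 1340 and 1458 units on the brightest of 4 probes, all on. IL5RA, IL21R and IL18R1, named after their values were seen, were on too, IL21R and IL18R1 below the olfactory line. TNF receptors were on in 13 of 29, with TNFRSF21 at 6813, 4784 and 5609 units, TNFRSF12A at 1721, 1700.5 and 1662 units and TNFRSF1A at 1167, 1251 and 1327 units. Nuclear receptors were on in 17 of 40, RXRA at 2815, 2639.6 and 2885 units and PPARG, a lipid-sensing factor, at 1772, 1482 and 1622 units on 2 of its 4 probes, with ESR2 off.

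Interleukins and interferons were on in 15 of 52 and chemokines in 4 of 41, with 29 off in each list. IL18, an epithelial cytokine stored as a precursor, had 4826, 4136 and 4703 units, mean log2 12.15 ± 0.12. CXCL16 had 1151, 992 and 1058 units on 1 of its 2 probes, and CXCL8 144, 200.4 and 187 units. CCL26 and CCL5 were on under the olfactory line. CCL2 (86.6, 92.9 and 88.7 units), CCL3 and CCL4 were off in the DMSO arrays. IL10 was called on at 1421, 1310.4 and 1560.5 units by 1 probe, while its other probe gave 90.1, 106.3 and 97.0 units and was detected on 1 array, so the 2 probes of IL10 disagree.

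**Figure D3:**
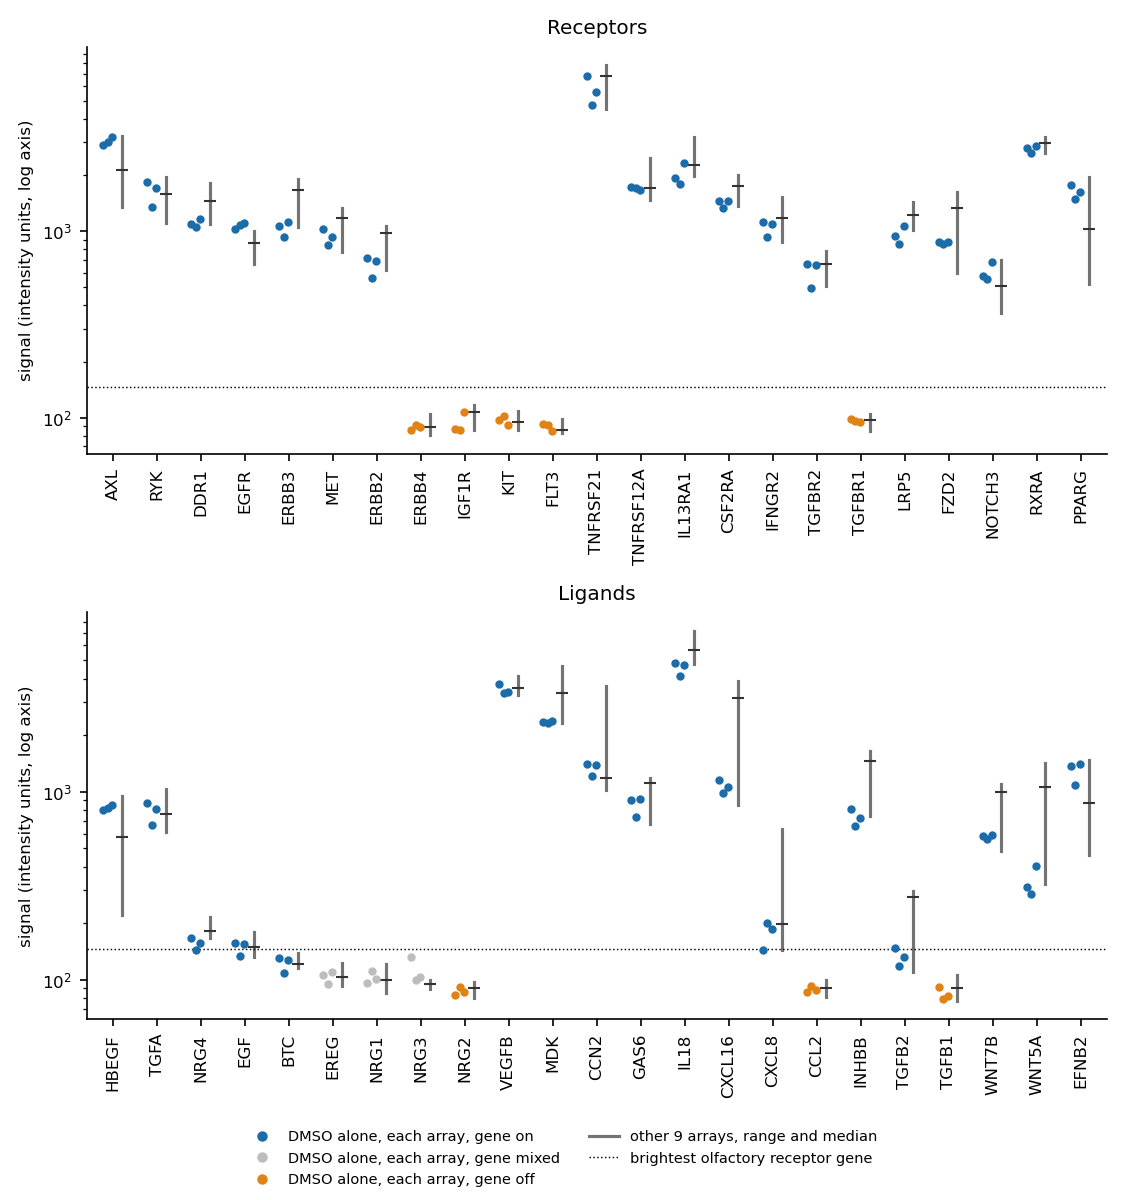
Signal of the brightest probe (vertical axis, intensity units, logarithmic) for receptors (top) and ligands (bottom) in the 3 DMSO arrays (dots coloured by call) with the range and median of the other 9 arrays (grey) and the mean of OR2A42 (dotted). EGFR, ERBB3 and MET lie near 1000 units, ERBB4, IGF1R and TGFBR1 below the line, and HBEGF and TGFA are the ERBB ligands well above it.

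The RAS-ERK list gave 15 on of 21, 13 of them above the olfactory line, the PI3K-AKT list 17 of 21 with 14 above it and the JAK-STAT and SOCS list 13 of 17 with 7 above it. SHC1, an adaptor that binds phosphorylated EGFR, had 3857, 3559 and 3851 units and the kinase MAP2K1 2246, 1627 and 1875 units, with the phosphatase PTPN11 at 2078, 1629 and 1772 units. RHEB, the activator of MTOR, had 5472, 4948 and 5375 units and AKT1 1793, 1876 and 2039 units. STAT3 had 847, 688 and 976 units with 3 of 3 probes on, and JAK2 (103, 96.9 and 96.3 units) and JAK3 were off.

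A list of feedback and output genes of ERK signalling was on in 20 of 26. CCND1, cyclin D1, had 4540.3, 3901 and 4055 units, mean log2 12.02 ± 0.11, and the immediate-early gene IER3 4047, 3408 and 3845 units. PHLDA1 had 2812, 2298 and 2354 units, FOSL1, an AP-1 subunit, 1396, 1428 and 1519.6 units and the ERK phosphatase DUSP5 986, 942 and 1216 units. The lowest PHLDA1 signal was 2298 units in the DMSO arrays and 394 units in the other 9, and the lowest FOSL1 signal was 1396 units in the DMSO arrays and 283 units in the other 9. ETV1 was off at 82.5, 84.6 and 84.2 units.

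Cell cycle genes were on in 25 of 29, 24 of them above the olfactory line. CDK4 had 3353, 3211 and 2974 units, the replication clamp PCNA 3447, 2517 and 2916 units, the mitotic cyclin CCNB2 2972, 2623 and 2764 units and TOP2A 2946, 2483 and 2728 units. The germ line cyclin CCNA1 and CCNE2 (98.1, 85.6 and 88.1 units) were off. The BCL2 family was on in 14 of 16, with the survival protein BCL2L1 at 4480.4, 4041 and 4347 units, mean log2 12.07 ± 0.08, and MCL1 at 641, 592 and 658 units. BCL2A1 was off at 99.1, 103 and 93.2 units.

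Tumour suppressors and regulators of lung cancer were on in 14 of 18. RBM10 had 2066, 1889 and 2170.4 units, the chromatin remodeller SMARCA4 1975, 1588 and 1914 units and KEAP1, which marks NFE2L2 for degradation, 1434, 1066 and 1249 units. NFE2L2 itself had 1116, 843 and 1117 units. APC (87.4, 97.1 and 102 units) and TP73 were off.

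A list of known NFE2L2 targets and other detoxification genes was on in 21 of 25 genes, and all 21 lay above the olfactory line. Whether NFE2L2 drives them in these cells was not tested. AKR1C3, an aldo-keto reductase of steroids and aldehydes, had 14873, 13319 and 15251 units on 1 probe, mean log2 13.82 ± 0.10. GSTP1, a glutathione transferase, had 13965, 12832 and 13186 units, mean log2 13.70 ± 0.06, and ALDH3A1, an aldehyde dehydrogenase, 10962, 9744 and 11917 units, mean log2 13.40 ± 0.15. None of the 3 came near background on any array. The peroxidase GPX2 had 7631, 5930.1 and 7089 units and TALDO1 of the pentose phosphate path 7921, 6531 and 7867 units on 1 of 2 probes.

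Within the AKR1C subfamily the members are near-identical in sequence and cannot be separated with confidence. AKR1C2 had 15550.0, 12269 and 15799 units on its brightest probe but only 2 of 6 probes on and 3 off, AKR1C4, a liver enzyme, 15583, 11169.6 and 12627 units on 1 of 2 probes, and AKR1C1 was off at 94.3, 82.5 and 82.1 units. The median over the 25 detoxification genes was 11.80 on the log2 scale, beside 6.86 over all 20046 named genes, of which 52.5% were on. These are medians of probe brightness and not amounts of transcript, and the list was chosen with earlier results of these data known. GSTA1 was off at 92.6, 100.3 and 94.5 units.

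Aldehyde dehydrogenases as a family were on in 14 of 19, with ALDH1A3, a retinoic acid-producing member, at 8295, 7277 and 8552 units. Aldo-keto reductases were on in 8 of 12. Cytochromes P450 were on in 18 of 53 and UDP-glucuronosyltransferases in 3 of 22. CYP4F11 had 1526, 1213 and 1459 units, CYP1B1 1218, 857 and 1124 units and UGT1A6 6397, 4401 and 5429.9 units, while CYP17A1 and UGT1A1 (83.9, 81.3 and 87.6 units) were off. UGT1A genes share exons, so the UGT1A6 probes may read other members too. Metallothioneins were on in 5 of 12, MT2A at 2519.8, 2323 and 2586 units.

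MHC class 1 genes were on in 14 of 15 and class 2 genes in 4 of 11. B2M, the light chain of class 1 molecules, had 7383, 6415 and 6250.3 units, mean log2 12.70 ± 0.13. The class 1 heavy chain genes HLA-E (865, 815 and 836 units), HLA-F (424, 456 and 460.0 units), HLA-B (295, 257 and 309 units) and HLA-C (253, 233 and 306 units) were on, and their close sequence similarity means that the members cannot be told apart with confidence. The peptide transporter TAP1 had 557, 495 and 487 units, and NLRC5, the transactivator of class 1 genes, was off at 97.8, 78.3 and 93.6 units. Over the other 9 arrays HLA-B ran from 346 to 1825 units and B2M from 5955 to 13573 units.

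Class 2 genes were weak. HLA-DMA had 258, 216 and 237 units, HLA-DRA 185, 177 and 214 units and the invariant chain CD74 189, 183 and 192 units, while HLA-DRB1, HLA-DPA1 and the class 2 transactivator CIITA (95.9, 90.8 and 97.8 units) were off. Checkpoint and natural killer ligands were on in 9 of 20, MICB at 642, 515 and 663 units, NECTIN2 at 439, 352 and 442 units and CD47 at 361, 292 and 378 units. PDCD1LG2 (101, 88.8 and 85.8 units) and CD80 were off. Innate sensors were on in 6 of 21, STING1 at 236, 237 and 269.7 units and CGAS at 207, 171 and 198 units, with TLR2 (91.3, 88.4 and 89.9 units) and TLR4 off.

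**Figure D4:**
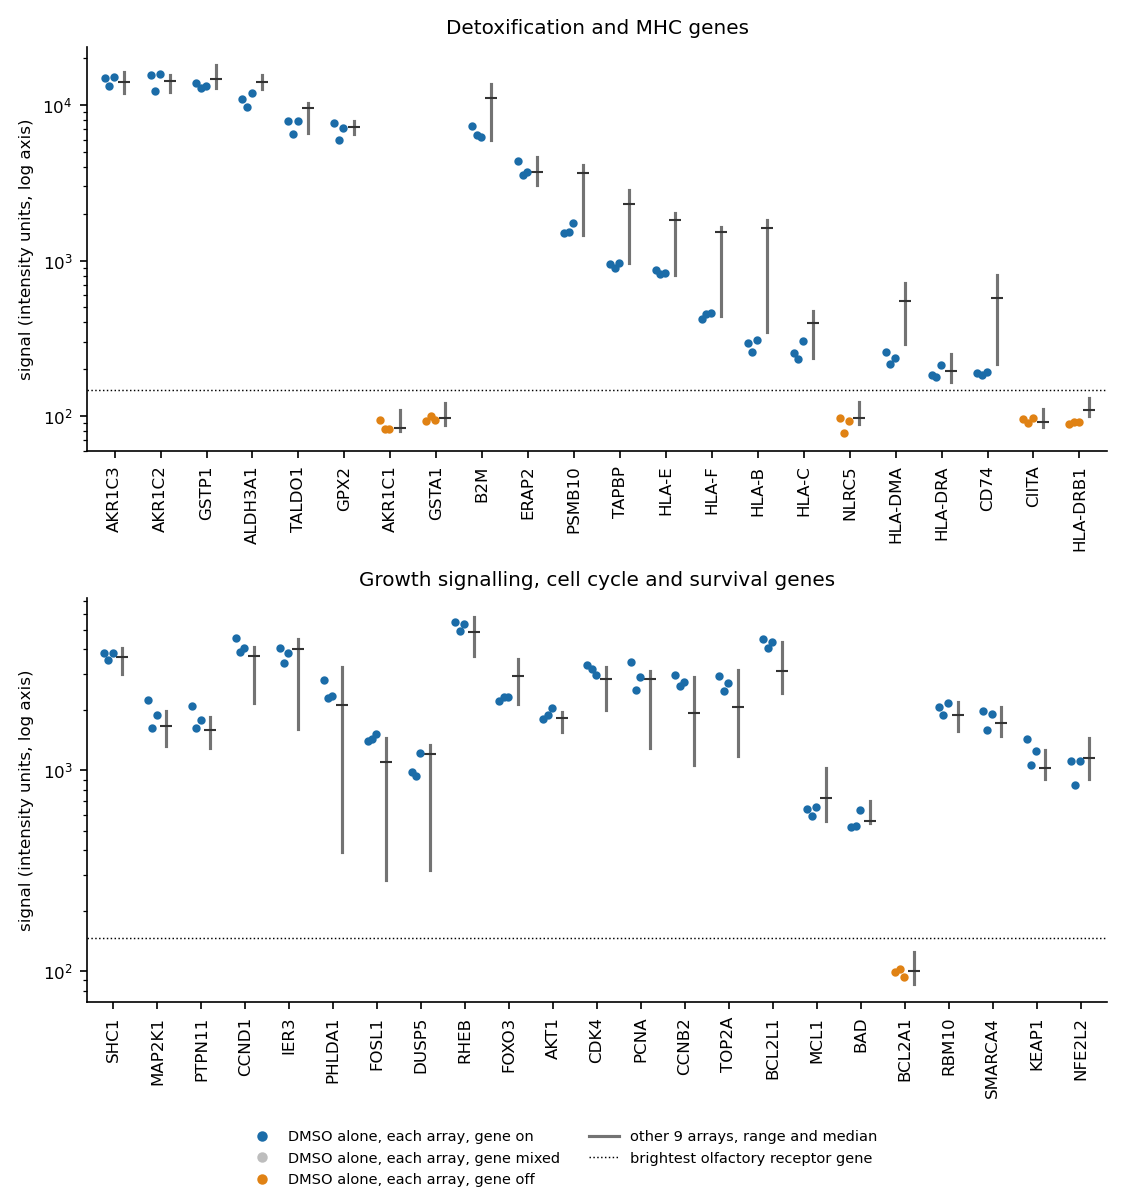
Signal of the brightest probe (vertical axis, intensity units, logarithmic) for detoxification and MHC genes (top) and for growth signalling, cell cycle and survival genes (bottom) in the 3 DMSO arrays (dots coloured by call), with the range and median of the other 9 arrays (grey) and the mean of OR2A42 (dotted). AKR1C3, AKR1C2, GSTP1 and ALDH3A1 lie near or above 10000 units, and AKR1C1, GSTA1, NLRC5 and CIITA at background.

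Several families had no or few on members. Late cornified envelope genes of the epidermis were on in 0 of 18 with 17 off and 1 mixed. Taste receptors were on in 0 of 27 with 9 mixed, interferon alpha genes in 0 of 13 with 3 mixed, and GABA and glutamate receptor genes in 0 of 38 with 12 mixed, where 2 members, GRID1-AS1 and GRM5P1, were counted by name and encode no receptor. Keratin-associated proteins of hair were on in 1 of 81 with 19 mixed and 61 off. The off members include KRTAP5-AS1, which was counted by name and encodes no such protein. The exception, KRTAP10-11, had 128, 129 and 135 units, below the olfactory line. Beta defensins were on in 1 of 37 with 12 mixed, DEFB1 at 109.9, 109 and 119 units, below the olfactory line. Mean signals of the off members of these families ranged from 79.1 to 103.7 units. Of the 61 off keratin-associated genes 38 were off in all 4 groups, as were 11 of 17 late cornified envelope genes, whereas the remainder were detected on at least 1 of the other 9 arrays.

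Other tissue-restricted families held a few detected members. Voltage-gated potassium channels were on in 5 of 35 and voltage-gated sodium channels in 1 of 9. KCNH6 was the brightest of these potassium channels, with a mean of 3414 units, but only 1 of its 3 probes was on and 1 was off on all 3 arrays. KCNS3 had 560.1, 621 and 682 units. Pregnancy-specific glycoproteins were on in 1 of 10. KIR and LILR genes of lymphoid and myeloid cells were off in 16 of 24, and the 2 on members LILRB3 (6544, 5863 and 6829.5 units) and LILRB1 (2913, 2665 and 3180.1 units) each had another probe that was off on all 3 arrays.

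HOXB7, of the patterning HOX genes, had 981, 884 and 939 units and HOXB5 400.1, 329.6 and 396 units among 3 on of 10 in the B cluster, while HOXB1, HOXB9 and HOXB13 (101, 91.4 and 106 units) were off. The C cluster gave 5 on of 9 with HOXC6 brightest at 279, 229 and 243 units, and the D cluster 1 on of 9 with 7 off. Only HOXA2 of the A cluster had a named probe, at 189, 158 and 193 units.

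Cancer-testis genes, normally limited to germ cells, were on in part. In the MAGEA family 5 of 13 were on, MAGEA6 at 1238, 1049.7 and 995 units, MAGEA3 at 569, 494 and 525 units and MAGEA12 at 391, 347 and 327 units, and MAGEA4 (95.4, 94.5 and 103 units) and MAGEA10 were off. In the GAGE, XAGE and SSX families 7 of 24 were on, SSX2 at 493, 393 and 399.8 units and SSX3 at 291, 286 and 268 units, with SSX2IP, a partner protein of SSX2 and no SSX gene itself, counted there by its name and below the olfactory line. Copies within these families are near-identical, so a probe may read several members. All MAGEA and SSX members named here lie on the X chromosome.

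**Figure D5:**
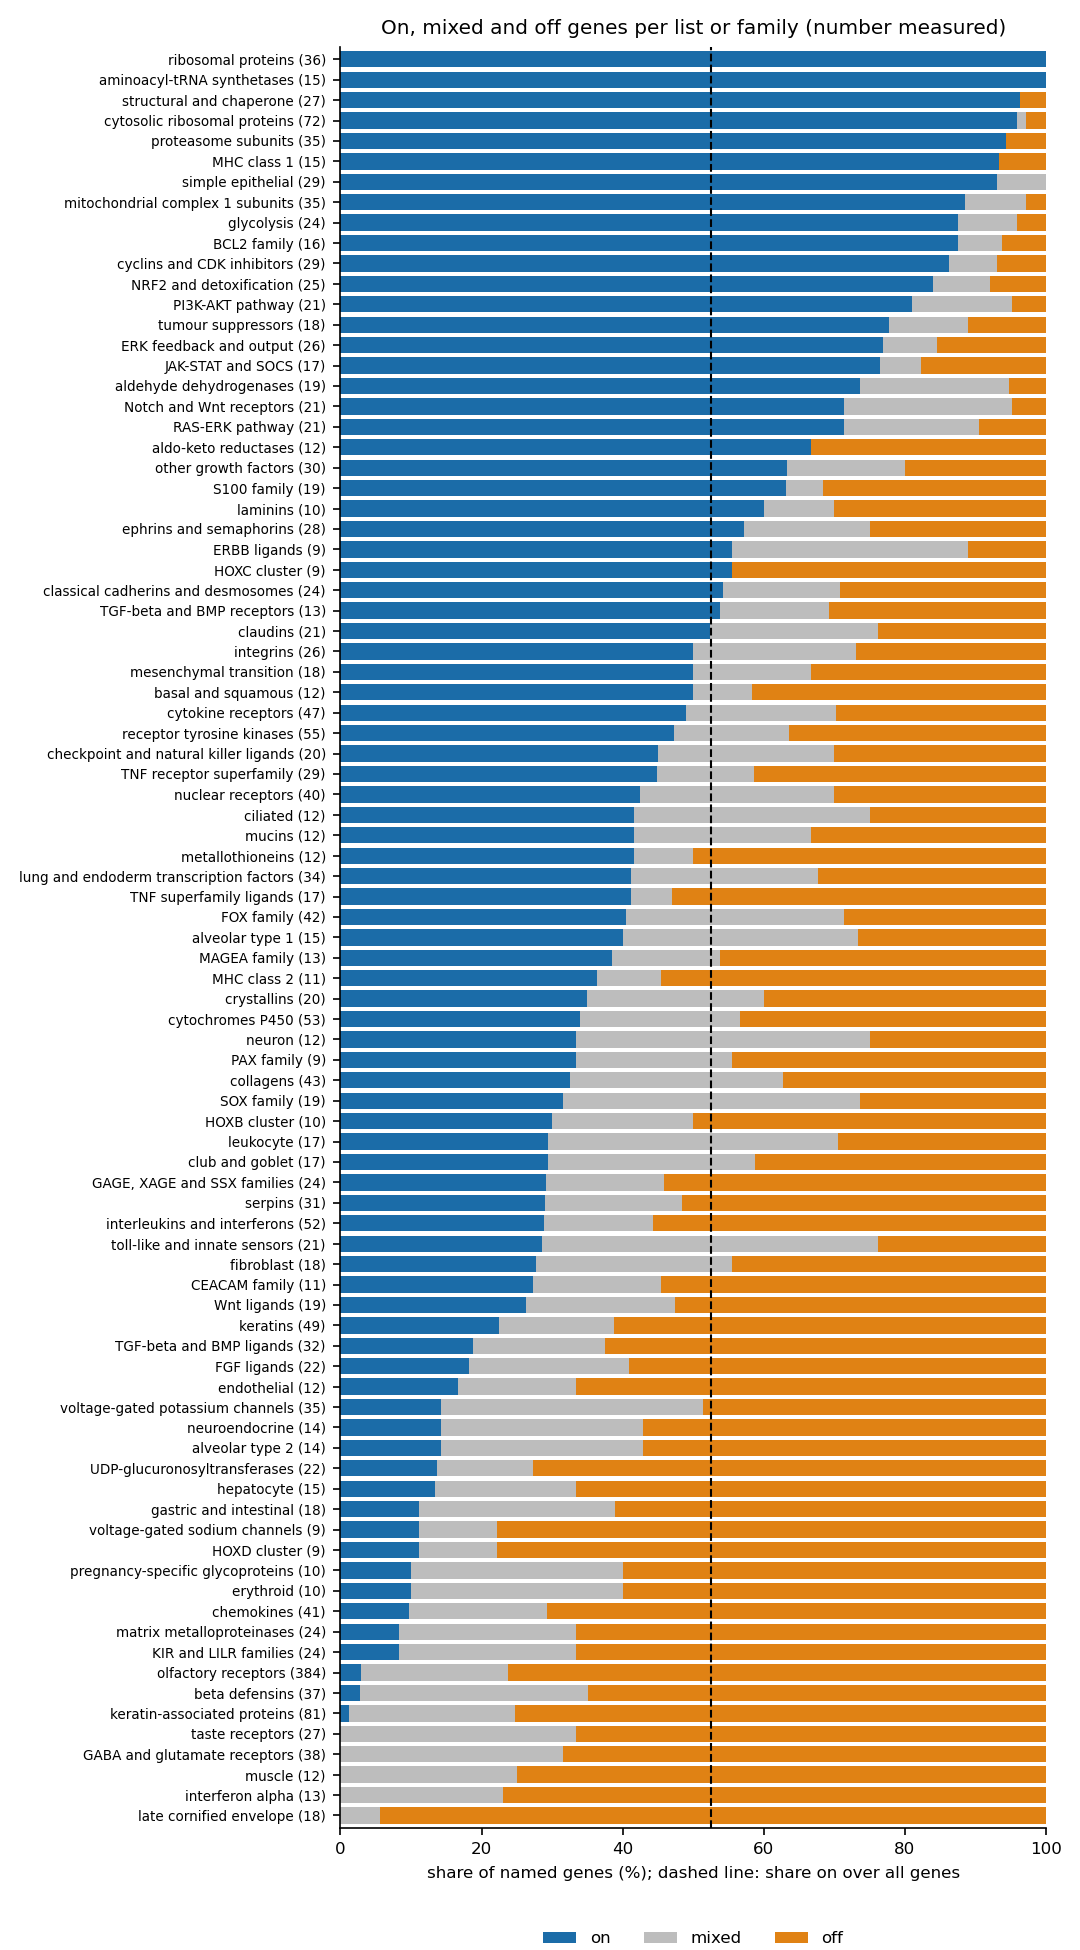
Share of named genes (horizontal axis, percent) that were on, mixed or off in the 3 DMSO arrays for each gene list or family with at least 9 measured members (vertical axis, number measured in brackets), ordered by the share on. The dashed line marks the 52.5% over all genes. The list of 36 ribosomal proteins and the 15 aminoacyl-tRNA synthetases stand at the top with all members on, and late cornified envelope, interferon alpha, muscle, GABA and glutamate and taste receptor genes at the bottom with 0 on.

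By class of gene 10070 of 17776 protein-coding genes (56.6%), 153 of 798 lncRNA genes (19.2%) and 80 of 279 snoRNA genes (28.7%) were on. Of 561 miRNA genes 21 (3.74%) were on and 439 off. Such a probe reads a precursor or a transcript across the locus, so its signal is not a level of the mature miRNA. The 5 brightest miRNA genes are shown with their mature sequences, chosen after their values were seen, because they are the miRNA loci with the clearest signal. The sequences come from RefSeq on GRCh38.p14, are written 5′ to 3′, and carry the seed, bases 2 to 8, in capitals.
hsa-miR-1228-5p: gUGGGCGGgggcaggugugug
hsa-miR-1228-3p: uCACACCUgccucgcccccc
hsa-miR-586: uAUGCAUUguauuuuuaggucc
hsa-miR-205-5p: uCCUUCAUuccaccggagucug
hsa-miR-205-3p: gAUUUCAGuggagugaaguuc
hsa-miR-614: gAACGCCUguucuugccaggugg
hsa-let-7d-5p: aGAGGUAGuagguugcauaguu
hsa-let-7d-3p: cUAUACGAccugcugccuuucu
No seed was shared among the 8 mature forms.

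MIR1228 lies on chromosome 12 from 57194504 to 57194576 and had 279, 293 and 259.9 units. MIR205, on chromosome 1 from 209432133 to 209432242, is a miRNA of basal and squamous epithelium and had 201, 192 and 240.3 units, mean log2 7.71 ± 0.17. MIRLET7D, of the let-7 family on chromosome 9 from 94178834 to 94178920, had 180.2, 147 and 161 units, and MIR586 and MIR614 had 293, 225 and 254 and 179, 143 and 175 units. All 5 were detected on all 12 arrays, yet none of the 21 on miRNA genes was brighter than 277.2 units, and 7 lay above the olfactory line.

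Different probes of a gene often disagreed, which limits any call that rests on 1 probe. Of 4194 on genes with several probes 1828 (43.6%) had every probe on, and 1529 had at least 1 probe off on all 3 arrays. Among the 50 brightest genes 8 had probes that differed at least 100-fold. F2R, the thrombin receptor, had 18359, 17053 and 17679 units on 1 probe and a mean of 112 units on the other. LAIR1, a receptor of leukocytes picked here after its values were seen, had 17694, 15216 and 14994 units against 112 units, and TMSB4X, an actin-binding peptide, 18075, 16402 and 17375 units against 84.1 units. The chemokine receptor CCR6, a leukocyte gene that 1 of its 3 probes put at 11695, 11296 and 12640.4 units against 86.5 units for the dimmest, and ITIH5, with 4 of 5 probes off, were picked here after their values were seen. Which of such probes reads the named transcript was not tested.

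The 3 DMSO arrays were close to each other. Pearson correlations of log2 signals over all named genes ran from 0.9933 to 0.9939, as a description across genes. The SD of an on gene had a median of 0.12 on the log2 scale and lay between 0.03 and 0.26 for the central 90% of on genes. TELO2, a chaperone factor of large kinases, varied most, with 291, 188 and 435 units and an SD of 0.61. ETS1, a transcription factor, had 1361, 681 and 1113 units, POLR2B 649, 348 and 507 units and CABIN1 136, 280.0 and 175 units. Of the 10 most variable on genes 5 were highest on array 1, 2 on array 2 and 3 on array 3. By mean detection p-value, CTSK, at 0.0496, had 98.8, 109 and 116 units, and GPC4, at 0.0501, 103, 98.4 and 108 units, and both were mixed with detection on 2 of 3 arrays, since calls use the p-value of each array.

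The baseline calls were followed into the other groups. A gene stays off only if none of its probes is detected on any array of a group. It stays on if any of its probes is detected on all arrays of the group. Since the rule treats on and off calls differently, the shares that held cannot show which kind of call is the more stable. Of the 10530 genes on in the DMSO arrays 9753 (92.6%) were on in all 3 other groups as well, and 2 were off in all of them. These 2 were OR2M5 (108, 106 and 118 units) and LINC02878 (111, 106 and 119 units), both under the olfactory line. Of the 6111 off genes 3053 were off in all groups and 4 were on in all 3 others, TLE2 (102, 87.0 and 98.2 units, against 109 to 190.2 units elsewhere), ZNF84, GNGT1 and LINC01252. Genes off in the DMSO arrays and on in another group numbered 162 with gefitinib, 36 with co-culture and 138 with co-culture and gefitinib. Genes on in the DMSO arrays and off in another group numbered 58 with gefitinib, 30 with co-culture and 32 with both. These are counts of detection calls, and no difference in level between groups was tested. They also depend on the threshold. At a detection p-value under 0.01, 9201 genes were on in all 4 groups and 5942 were off in all 4.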

How the data were processed

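Bead signals of 48105 of the 48107 probes on 12 arrays were used as the authors deposited them, as intensity on a linear scale, not logged, background-subtracted or normalized per the file headers. Each deposited signal has a detection p-value; neither the labels nor the headers say how it was computed, or which scanner and software were used. The authors' normalized intensity values served as an alternative only. No count test or contrast was made. In Python 3.11.15 with numpy 2.4.6 and pandas 2.3.3, 30112 probes with 1 gene in the platform annotation were assigned to 20046 genes, of which 6690 had several probes. The level of a gene is the mean log2 signal of its brightest probe over the 3 DMSO arrays, and that probe was also read on the other 9 arrays. Detection at a p-value under 0.05 set the on, mixed and off calls.

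The DMSO arrays had mean signals of 425, 378 and 409 units and detected 21527, 20918 and 22114 probes. The number of arrays limits the precision. The calling step was checked on simulated p-values that all lay far from the threshold. That check covers the code only and not the calls of genes near the threshold or mixed genes. Genes named are the 25 brightest, up to 6 on and 6 off members of each list or family (all members of lists of 15 or fewer), all ERBB receptors and ligands, the 10 most variable on genes, 5 genes on each side of the threshold, and up to 10 that switched against all other groups. The members, the 54 lists and the 37 families were chosen with earlier results of these data known. Alternatives were a p-value under 0.01, the brightest probe alone, all probes, the mean of on probes, each array left out, the authors' normalized values, and neqc of limma 3.58.1 in R 4.3.3 with an offset of 16. Requiring every probe on, or a signal above every olfactory receptor gene, was added after the data were seen. Probes without a single annotated gene were not named.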

Additional observations from a re-analysis of the deposited data

Results flagged for a closer look

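Signal was also present in probes that no gene count above uses. Of 17993 probes to which the platform annotation gave no single gene name, 3498 (19.4%) were detected on all 3 DMSO arrays, beside 13719 of the 30112 named probes (45.6%). What these probes read was not analysed here.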

How the results depend on the processing

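No paired analysis was possible because the results describe the DMSO arrays alone and come from no test between groups. Leaving out 1 DMSO array in turn gave 10825 to 11033 on genes, 6733 to 6916 off genes, 47 to 48 of the 50 brightest genes shared, and 3193 to 3223 genes off in all 4 groups. At a detection p-value under 0.01, 9871 genes were on and 8109 off, and genes off in all 4 groups numbered 5942, against 3053 at 0.05. With every probe required 8164 genes were on, and 8427 were on above the brightest olfactory receptor gene, both settings chosen after the data were seen. Of 91 list and family counts, 8, 33 and 30 moved by over 1.5 times under those 3 settings. The median level of the 927 named genes was 6.69 on the log2 scale of the deposited signals, 4.88 after neqc over 12 arrays and 4.78 after neqc over the 3 DMSO arrays, since neqc removes background. The 50 brightest genes shared 30 members with a ranking by the mean of on probes, and 50 with rankings by neqc over 12 arrays or the authors' normalized values. Signals near background limit what a weak on call can show.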
